A study of Mus musculus with 24 samples.

Results

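The cold-inducible RNA-binding proteins CIRBP and RBM3 were sought by gene symbol among the features of a heart time course. Of the 2 genes given by the rule, 1 was found: Cirbp has 1 feature of its own among 23521 features with a single symbol, and it is 1 of 22180 genes measured that way. Rbm3 has 0 features of its own, since the 1 feature annotated to it is also annotated to Rbm3-ps, a pseudogene copy of Rbm3 on another chromosome. What that feature measures cannot be assigned to either gene, and its values are given below under the name of the shared Rbm3/Rbm3-ps feature, beside those of Cirbp and never as those of Rbm3.

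RNA came from the myocardium of 24 male mice with the genotype Clock delta 19/delta 19 at an age of 8 weeks, kept in 12 h of light and 12 h of darkness. Hearts were taken at 6 zeitgeber times (ZT, hours after the lights come on) 4 h apart, with 4 biological replicates at each. The light phase holds ZT03, ZT07 and ZT11, and the dark phase holds ZT15, ZT19 and ZT23. All mice carry the mutation, which removes an exon of Clock and yields a protein with impaired activation of transcription. Wild-type hearts and body temperature were not analysed here. The values are on a log scale, taken as log2, and each feature had been centred by the authors on its own median over the 24 arrays, so every value is a difference from that median and no level is known. For that reason the presence of cardiomyocyte markers cannot be checked, levels of different genes cannot be compared, and the arrays' number limits the precision.

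CIRBP and RBM3 are small proteins with an RNA-recognition motif and a glycine-rich tail, and their transcripts accumulate when mammalian cells are cooled slightly, in contrast to heat shock transcripts. Mice are active in the dark and their body temperature is lower in the light phase, and in cultured mouse cells Cirbp transcripts follow imposed temperature cycles. In mouse fibroblasts CIRBP binds transcripts of clock genes, among them Clock. The question put to these hearts is how far Cirbp differs over the light-dark cycle in mice whose clock is impaired.

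The sequence before a Cirbp start is shown because a cold-responsive element was reported in the region upstream of this gene. The RefSeq promoter table for GRCm38.p6 holds 2 Cirbp starts. The annotated span of the gene begins farther upstream than both, and no promoter of that start is shown. The 250 bases before the first of the 2 lie on the plus strand at chr10:80167589-80167838. Capitals mark matches on either strand to 3 motifs: TCCCCGCC (the reported mild-cold element), GGGCGG (the GC box bound by SP1) and CCAAT (the CCAAT box).
Cirbp promoter: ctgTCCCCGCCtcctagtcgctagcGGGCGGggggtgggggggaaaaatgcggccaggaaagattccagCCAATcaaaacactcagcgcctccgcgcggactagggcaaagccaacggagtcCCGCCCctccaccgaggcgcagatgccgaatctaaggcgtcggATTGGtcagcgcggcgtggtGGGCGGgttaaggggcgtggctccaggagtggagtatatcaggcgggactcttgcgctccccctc

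The mild-cold octamer occurs 1 time, beginning 247 bases before the start, and 4.64% of 32851 promoter windows of the same length hold it on either strand. The GC box occurs 3 times, at 225, 128 and 65 bases before the start, and 32.7% of windows hold it. The CCAAT box occurs 2 times, at 181 and 85 bases before the start, and 33.8% of windows hold it. The E-box CACGTG, through which CLOCK and its partner act, has 0 matches in this window (6.02% of windows), and the heat shock pair GAANNTTC has 0 matches (6.69%). None of the 5 motifs overlaps another here. The window holds 65.6% G and C bases, against a median of 52.4% over all windows. Matches describe letters and not bound sites, and no binding was measured in these hearts.

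Cirbp values lay slightly above the gene's median in most light-phase hearts and slightly below it in most dark-phase hearts, with hearts of the same time point often on both sides of the median. At ZT03 the 4 hearts were at 0.044, 0.078, 0.0074 and 0.17. At ZT07 they were at 0.26, -0.071, 0.19 and -0.10. The ZT07 hearts thus held both the highest Cirbp value of the study and values below the dark-phase median. At ZT11 Cirbp was at -0.0045, 0.00031, 0.12 and -0.0073. At ZT15 it was at 0.071, -0.15, -0.19 and -0.00031. Replicate 3 alone stood above the other ZT11 hearts, which lay almost at the median, while the ZT15 hearts spread over both sides of it. At ZT19 Cirbp was at -0.22, -0.036, 0.10 and 0.046. At ZT23 it was at -0.20, -0.0097, 0.016 and -0.14. The lowest value of the study, -0.22, came from ZT19 replicate 1, yet another ZT19 heart was the highest of the dark phase.

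The means of Cirbp were 0.076 ± 0.072 (SD, n = 4) at ZT03, 0.070 ± 0.18 at ZT07 and 0.027 ± 0.061 at ZT11. They were -0.066 ± 0.12 at ZT15, -0.026 ± 0.14 at ZT19 and -0.083 ± 0.10 at ZT23. All 3 light-phase means were thus above all 3 dark-phase means. The highest mean fell at ZT03 and the lowest at ZT23, and ZT19 was the highest of the dark phase. No neighbours in this order differed beyond their spread: the 5 steps between neighbouring means measured 0.0065 to 0.053, each with an SE of 0.081. Over the 15 pairs of time points, 0 pairs had hearts that did not overlap, where 4.6% of such pairs over all features did not. The widest step, ZT23 minus ZT03, was -0.16 ± 0.081 (SE), which did not pass (adjusted p with limma 0.45 over all genes, unadjusted p = 0.063). In that pair 1.04% of genes passed, and over the 15 pairs 0 to 2.29% of genes did. With limma, 0 of the 15 pairs had an unadjusted p under 0.05 for Cirbp, and the share of genes at such a p was not computed.

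**Figure D1:**
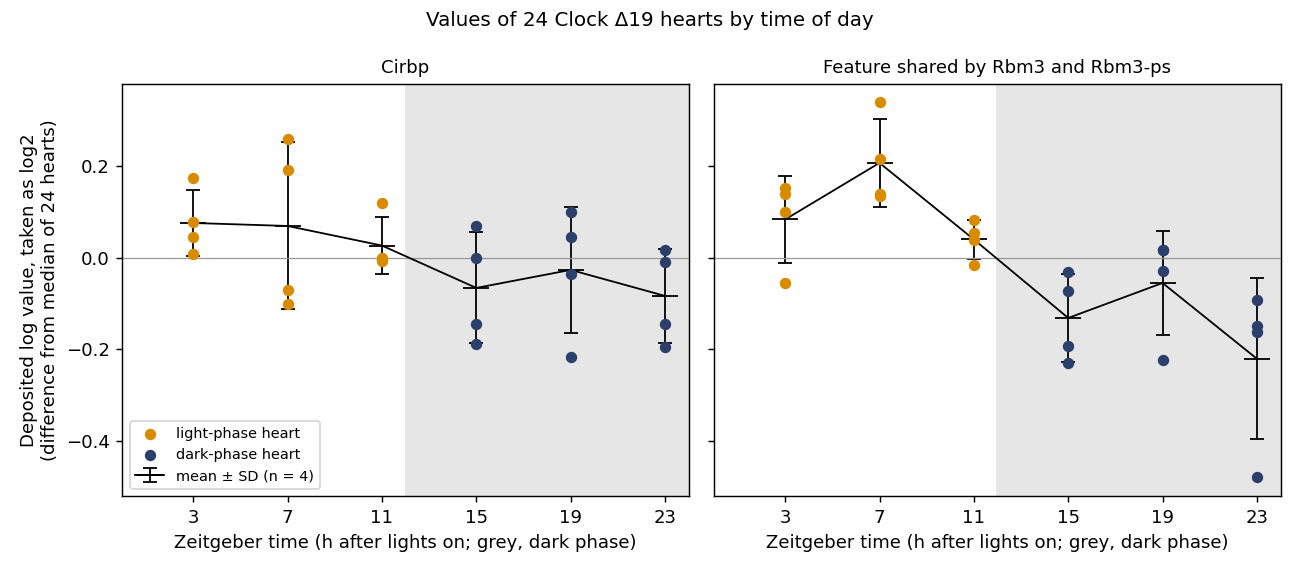
Values of Cirbp (left panel) and of the feature shared by Rbm3 and Rbm3-ps (right panel) in 24 hearts, on the log2 scale around each feature's median (y axis), against zeitgeber time in hours (x axis, dark phase in grey). Points are hearts, and bars show mean ± SD of 4 hearts: Cirbp means run between 0.076 at ZT03 and -0.083 at ZT23, those of the shared feature between 0.21 at ZT07 and -0.22 at ZT23.

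Between the phases, Cirbp was at -0.10 in the lowest, 0.026 in the median and 0.26 in the highest of 12 light-phase hearts, against -0.22, -0.023 and 0.10 in the 12 dark-phase hearts. The phases overlapped over most of their range, and 10 of 12 light-phase hearts lay above the dark-phase median. Of all genes, 8.58% had at least that many. The mean was 0.058 ± 0.11 (SD) in the light phase and -0.058 ± 0.11 in the dark phase. Light minus dark was 0.12 ± 0.047 (SE), a 1.08-fold difference with a 95% interval of 1.01 to 1.16. This did not pass over all genes (adjusted p with limma 0.36, unadjusted p = 0.022). At an unadjusted p under 0.05, 6.3% of genes were higher in the light phase, and 0.243% passed after adjustment, so an unadjusted p of this size was common. Cirbp ranked at 1359 of 22180 genes by this p, and its absolute difference exceeded that of 94.3% of genes. Its SD within time points was 0.12, above that of 74.5% of genes, where the median gene had 0.087. In hearts taken whole, fewer cells of a type and less RNA per cell cannot be told apart.

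With each heart left out in turn, light minus dark of Cirbp stayed positive, between 0.095 and 0.13, and its unadjusted p lay between 0.0079 and 0.047. It passed over all genes in 0 of these 24 fits. The smallest difference came without ZT19 replicate 1, the heart of the lowest Cirbp value. Without ZT07 replicate 1, the heart of the highest, it was also 0.095. ZT11 replicate 1 and ZT19 replicate 1 lay outside the range of all other hearts for 16.2% and 11.2% of genes, ZT23 replicate 4 for 12.4%, and the other hearts for 6.16% to 10.1%. The Cirbp difference was 0.12 when ZT11 replicate 1 was dropped and 0.11 when ZT23 replicate 4 was.

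A cosine of period 24 h gave Cirbp an amplitude, from mean to peak, of 0.075 ± 0.032 (SE) with a fitted peak at ZT6.53. The peak-to-trough fold of that curve was 1.11. It did not pass (adjusted p with limma 0.54, unadjusted p = 0.093), in a test that 0.0631% of genes passed. The F test of any difference among the 6 time points gave an adjusted p with limma of 0.69 for Cirbp, and 1.48% of genes passed it. A pair of terms of period 12 h had an amplitude of 0.029 ± 0.033 for Cirbp (adjusted p with limma 0.94), in a test that 0.00451% of genes passed. That amplitude was 0.016 without ZT23 replicate 1, 0.044 without ZT07 replicate 2 and 0.047 without ZT07 replicate 4, and it passed in 0 of the 24 fits that left out a heart. One cycle was sampled, so none of these fits shows that a profile repeats. The Cirbp feature is a single value per heart, so the isoforms that RefSeq lists for this gene could not be told apart.

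The shared Rbm3/Rbm3-ps feature was clearly higher in the light phase. At ZT03 it was at 0.15, 0.14, 0.099 and -0.056. At ZT07 it was at 0.14, 0.34, 0.22 and 0.13. All 4 ZT07 hearts were thus above the median, and 3 of the 4 ZT03 hearts. At ZT11 the feature was at -0.016, 0.054, 0.084 and 0.039. At ZT15 it was at -0.030, -0.23, -0.072 and -0.19. The ZT11 hearts lay close together and above all ZT15 hearts. At ZT19 the feature was at -0.22, 0.016, 0.016 and -0.028. At ZT23 it was at -0.093, -0.15, -0.16 and -0.48. Replicate 1 at ZT19 and replicate 4 at ZT23 were far below the other hearts of their time points.

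Means of the shared feature were 0.084 ± 0.096 (SD, n = 4) at ZT03, 0.21 ± 0.095 at ZT07 and 0.040 ± 0.042 at ZT11. They were -0.13 ± 0.096 at ZT15, -0.055 ± 0.11 at ZT19 and -0.22 ± 0.18 at ZT23. As for Cirbp, all 3 light-phase means lay above all 3 dark-phase means, ZT19 was the highest of the dark phase and ZT23 the lowest of all. Unlike Cirbp, whose ZT03 and ZT07 means were nearly equal, it was highest at ZT07, though ZT07 minus ZT03 did not pass (0.12 ± 0.075 SE, unadjusted p with limma 0.11). No other neighbours in the order differed beyond their spread either, at steps of 0.044 to 0.095. Hearts did not overlap in 7 of 15 pairs of time points, 4 of which paired ZT07 with a later time, against 4.6% of feature pairs over all features. For ZT23 minus ZT07 the difference was -0.43 ± 0.075, and it narrowly missed the threshold (adjusted p with limma 0.057 over all 34351 features, of which 0.0175% passed). With limma, 0 of the 15 pairs passed over all features, where 0 to 1.51% of features passed in a pair. An unadjusted p under 0.05 was reached in 9 pairs, and the share of features at such a p was not computed. Leaving out ZT03 replicate 4 let 2 pairs pass, and leaving out ZT11 replicate 1 or ZT19 replicate 1 let 1 pass.

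In the light phase the shared feature was at -0.056 in the lowest, 0.12 in the median and 0.34 in the highest of 12 hearts, against -0.48, -0.12 and 0.016 in the 12 dark-phase hearts. All 12 light-phase hearts lay above the dark-phase median, as did all 12 for 0.591% of features. Of these 12 hearts, 10 lay above every dark-phase heart, a count whose share over all features was not computed. Its mean was 0.11 ± 0.10 (SD) in the light phase and -0.14 ± 0.14 in the dark phase. Light minus dark was 0.25 ± 0.043 (SE), a 1.19-fold difference with a 95% interval of 1.11 to 1.26. This passed over all features (adjusted p with limma 0.023), as 0.131% of features did with a higher light-phase value. It ranked at 20 of 34351 features by this p. The difference passed in all 24 fits that left out a heart, at 0.22 to 0.26 with adjusted p between 0.016 and 0.048. The smallest of these, 0.22, came without ZT23 replicate 4, the heart of the lowest value.

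The F test over the 6 time points also passed for the shared feature (adjusted p with limma 0.035, against 0.85% of features). It missed the threshold, at adjusted p with limma of 0.054 to 0.079, without any 1 of 11 hearts. These were ZT03 replicates 1, 2 and 3, ZT07 replicates 2, 3 and 4, ZT11 replicates 2 and 3, ZT15 replicates 2 and 4, and ZT23 replicate 2. The 24 h cosine gave an amplitude of 0.17 ± 0.036 (SE) with a fitted peak at ZT7.30, within an hour of the fitted peak of Cirbp. That amplitude did not pass (adjusted p with limma 0.16, unadjusted p = 0.00056), in a test that 0.00873% of features passed. The 12 h terms, with fitted peaks at ZT6.22 and 12 h later, had an amplitude of 0.097 ± 0.032 (adjusted p with limma 0.44, unadjusted p = 0.022, against 0.00582% of features).

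**Figure D2:**
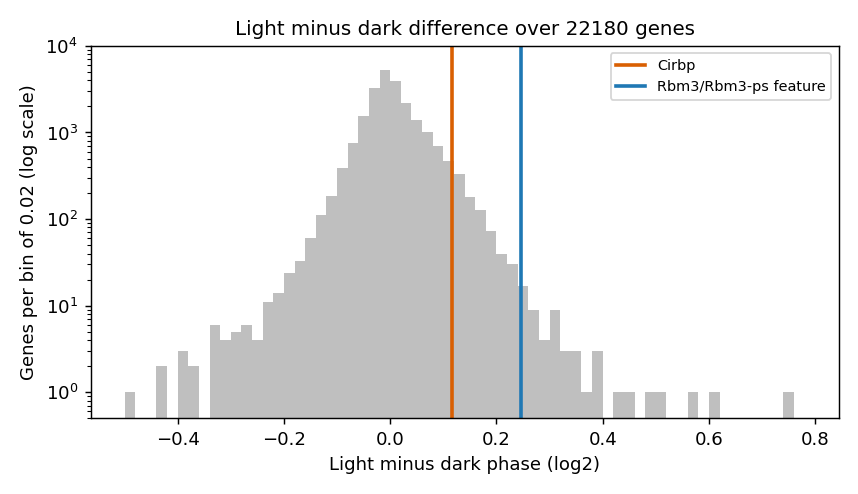
Number of genes (y axis, log scale) by their light minus dark difference on the log2 scale (x axis, bins of 0.02) for 22180 genes. Lines mark Cirbp at 0.12, in the upper flank of the genes, and the feature shared by Rbm3 and Rbm3-ps at 0.25, farther out.

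Rbm3os, a long noncoding RNA gene whose span overlaps that of Rbm3 in the RefSeq annotation, has a feature of its own and was looked at for that position. Whether that feature also takes up Rbm3 transcripts was not tested. It averaged 0.0042 ± 0.059 (SD, n = 12) in the light phase and -0.012 ± 0.069 in the dark phase. Its difference of 0.016 ± 0.026 (SE) did not pass (adjusted p with limma 0.88), and the light-phase hearts above the dark-phase median numbered 5 of 12.

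Cirbp and the shared feature differed in the size of their light-dark difference. Cirbp minus the shared feature was -0.053 ± 0.16 (SD, n = 12) in the light phase and 0.077 ± 0.13 in the dark phase. This difference of -0.13 between phases had p = 0.040 by a two-sided permutation test with 100000 permutations, and 10 of 12 light-phase hearts lay below the dark-phase median. The p was at or above 0.051, up to 0.077, without any 1 of 10 hearts: ZT03 replicates 1 and 3, ZT07 replicates 2 and 4, ZT11 replicate 2, ZT15 replicates 1 and 4, and ZT23 replicates 2, 3 and 4. Features of an array can also differ in how far they report a given change, so a difference in size between 2 features is not one between 2 transcripts.

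Across the 24 hearts, Cirbp and the shared feature were correlated with Pearson r = 0.48 (permutation p = 0.017) and Spearman rho = 0.49 (permutation p = 0.016). Adjusted over the 11 relations computed, these p-values were 0.062 and 0.058, so the relation did not pass. Without ZT23 replicate 4 and ZT07 replicate 2, the hearts farthest from the median of the shared feature, r was 0.57. Within the light phase r was -0.14 and rho 0.10 (permutation p = 0.67 and 0.75, n = 12), and within the dark phase r was 0.48 and rho 0.48 (p = 0.10 and 0.12, n = 12). On deviations from the time-point means r was 0.15 and rho 0.14 (permutation p = 0.54 and 0.59). The relation was therefore not detected within time points, which does not show that it is absent there. Among the light-phase hearts, ZT07 replicates 2 and 4 combined a high value of the shared feature with a low Cirbp value.

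**Figure D3:**
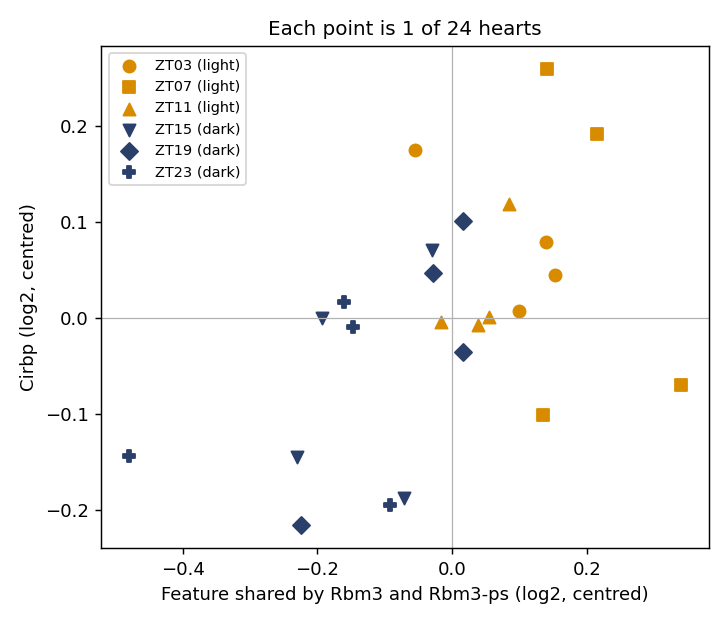
Cirbp (y axis) against the feature shared by Rbm3 and Rbm3-ps (x axis), both on the log2 scale around the feature's median, in 24 hearts, with a marker for each time point (orange, light phase; blue, dark phase). Hearts of the light phase lie mostly to the right and those of the dark phase mostly to the left (r = 0.48 over all, -0.14 within the light phase and 0.48 within the dark phase).

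The other 10 relations paired Cirbp with genes proposed as targets of CIRBP or RBM3. Over all 24 hearts Cirbp ran opposite to Yap1, a coactivator of the Hippo pathway, with r = -0.54 and rho = -0.54 (permutation p = 0.0060 and 0.0072). Cirbp ran with Kcnd2, whose potassium channel carries transient outward current in the rodent ventricle, at r = 0.48 and rho = 0.47 (permutation p = 0.018 and 0.022), and with Rtn3, a reticulon gene whose translation RBM3 raises in mouse brain, at r = 0.46 and rho = 0.52 (permutation p = 0.023 and 0.0097). After adjustment over the 11 relations, none passed (0.062 for each of the 3 r, and 0.053 to 0.061 for rho). Without ZT07 replicate 1 and ZT19 replicate 1, the hearts of extreme Cirbp values, r was -0.49 for Yap1, 0.42 for Kcnd2 and 0.45 for Rtn3. On deviations from the time-point means they were -0.37, 0.25 and 0.34, each with an adjusted permutation p of 0.48 to 0.50. The largest of the 10 on deviations was Rpa2, which codes for a subunit of replication protein A, at r = 0.49 and rho = 0.51 (permutation p = 0.051 and 0.022, adjusted 0.48 and 0.25), and its r was 0.35 without the same 2 hearts. With Clock, whose transcript CIRBP binds in mouse fibroblasts, r was -0.15 and rho -0.21 over all hearts (permutation p = 0.50 and 0.32), -0.11 without the same 2 hearts, and -0.26 on deviations (p = 0.39). Of these 10 genes, 0 passed the light-dark contrast over all genes. Light minus dark was 0.22 ± 0.063 (SE) for Kcnd2, -0.11 ± 0.029 for Yap1, 0.073 ± 0.038 for Rtn3 and -0.0031 ± 0.053 for Clock (adjusted p with limma 0.14, 0.12, 0.51 and 0.99).

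By Pearson r over the 24 hearts, the genes most like Cirbp, leaving out predicted genes and clone names here and for the shared feature, were Trim7 (0.79), Lmf1 (0.75), Dlst (0.72), Cstf1 (0.72), Spata24 (0.71) and Ncoa1 (0.71). These values describe a choice among 22179 genes whose central 95% ran between -0.45 and 0.48, and hearts share their array across genes. On deviations from the time-point means the same 6 genes, picked for their r over these hearts, had r of 0.70 to 0.79 with Cirbp. Light minus dark was 0.11 ± 0.031 (SE) for Trim7, a ubiquitin ligase gene, and 0.14 ± 0.032 for Dlst, which codes for a subunit of the 2-oxoglutarate dehydrogenase complex (adjusted p with limma 0.17 and 0.074). Among the genes so chosen, those most opposite to Cirbp were Ebag9 (-0.77), Rprm (-0.71), Sostdc1 (-0.69), Adgrv1 (-0.67), Lmx1b (-0.67) and Mir1195 (-0.66), and 0 of these 12 genes passed the light-dark contrast.

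For the shared feature the most similar genes were other ones: Mboat2 (0.84), Pla2g4e (0.76), Capn7 (0.76), Arhgap20 (0.76), Cmah (0.75) and Fbxo9 (0.74). Of these, Arhgap20 (0.23 ± 0.040, SE, adjusted p with limma 0.016) and Cmah (0.19 ± 0.029, adjusted p = 0.0085) were higher in the light phase over all genes. On deviations from the time-point means r with the shared feature was 0.47 for Arhgap20 and 0.16 for Cmah. It was 0.64 for Mboat2, 0.65 for Pla2g4e, 0.48 for Capn7 and 0.44 for Fbxo9, all picked for their r over these hearts. With predicted genes and clone names left out, of which 1 reached -0.85, the most opposite genes were Cd6 (-0.80), P2rx2 (-0.77), Mir3099 (-0.76), S100g (-0.75), Rtl9 (-0.74) and Platr21 (-0.74). By the same measure Cirbp ranked at 783 of 22180 genes in likeness to the shared feature. On deviations from the time-point means the most opposite genes named above, also picked for their r, had r of -0.78 to -0.55.

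Other genes of the temperature response were counted from lists. Of 11 measured relatives of RBM3 and cold shock domain genes, 0 passed the light-dark contrast in either direction, and their median difference was -0.0049, where all genes had -0.0022. Rbmx was the highest of these, at 0.065 ± 0.061 (SE), and Rbmxl1 the lowest, at -0.060 ± 0.047. Ybx1, a cold shock domain gene, was at -0.028 ± 0.031. Cirbp, at 0.12, was above the range of this list, -0.060 to 0.065. Of 18 measured splicing factors and their kinases, a group through which temperature acts on splicing, 1 was higher in the light phase, Srsf5 (0.34 ± 0.051, adjusted p with limma 0.0085), 0 were lower, and the median was -0.0037. Over all genes 0.243% were higher and 0.135% lower by this test. The r of Srsf5 over 24 hearts was 0.39 with Cirbp and 0.71 with the shared feature. Srsf5 and the shared feature both passed the contrast, so their r includes the difference between phases. CDC-like kinase genes, whose proteins respond to body temperature, did not pass: Clk1 was at -0.014, Clk2 at 0.0018 and Clk4 at -0.070.

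The list of heat-inducible genes also holds general chaperones, and those of its genes that passed had the opposite direction to the shared feature. Over all genes, 5 of the 19 measured were lower in the light phase by the light-dark contrast and 0 were higher: Hspa8, Cryab, Fkbp4, Hspb1 and Hspa4. Hspa8 was at -0.32 ± 0.060 (SE), Fkbp4 at -0.18 ± 0.031 and Hspa4 at -0.12 ± 0.025 (adjusted p with limma 0.018, 0.016 and 0.038). Of all genes, 0.135% were lower by the same test. Hspa1a, at -0.33 ± 0.11 (SE), and Hspa1b, at -0.15 ± 0.12, did not pass (adjusted p with limma 0.25 and 0.71). The list median was -0.13, and the lower direction of this list was already known when it was drawn up. Of the 5 genes, Fkbp4, Hspb1 and Hspa4 had all light-phase means below all dark-phase means. Cryab averaged -0.38 at ZT03 and -0.29 at ZT07 but 0.15 at ZT11, its highest mean. Hspa8 averaged -0.34, -0.23 and 0.072 at these times, the last above its 0.043 at ZT19. Over the 24 hearts, r with Cirbp was below 0 for 13 of the 19 genes with a median of -0.063, and r with the shared feature was below 0 for 15 with a median of -0.23, where the median of all genes was -0.0032 and -0.011. Among all 22180 genes, r was below 0 for 11182 with Cirbp and for 11417 with the shared feature. For Hspa8, r was -0.51 with Cirbp and -0.67 with the shared feature. Hspa8 and the shared feature both passed the light-dark contrast, so their r includes that difference, and r on deviations was not computed. Of 4 listed heat shock factor genes only 3 were measured, Hsf2, Hsf4 and Hsf5, and of these 0 passed.

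**Figure D4:**
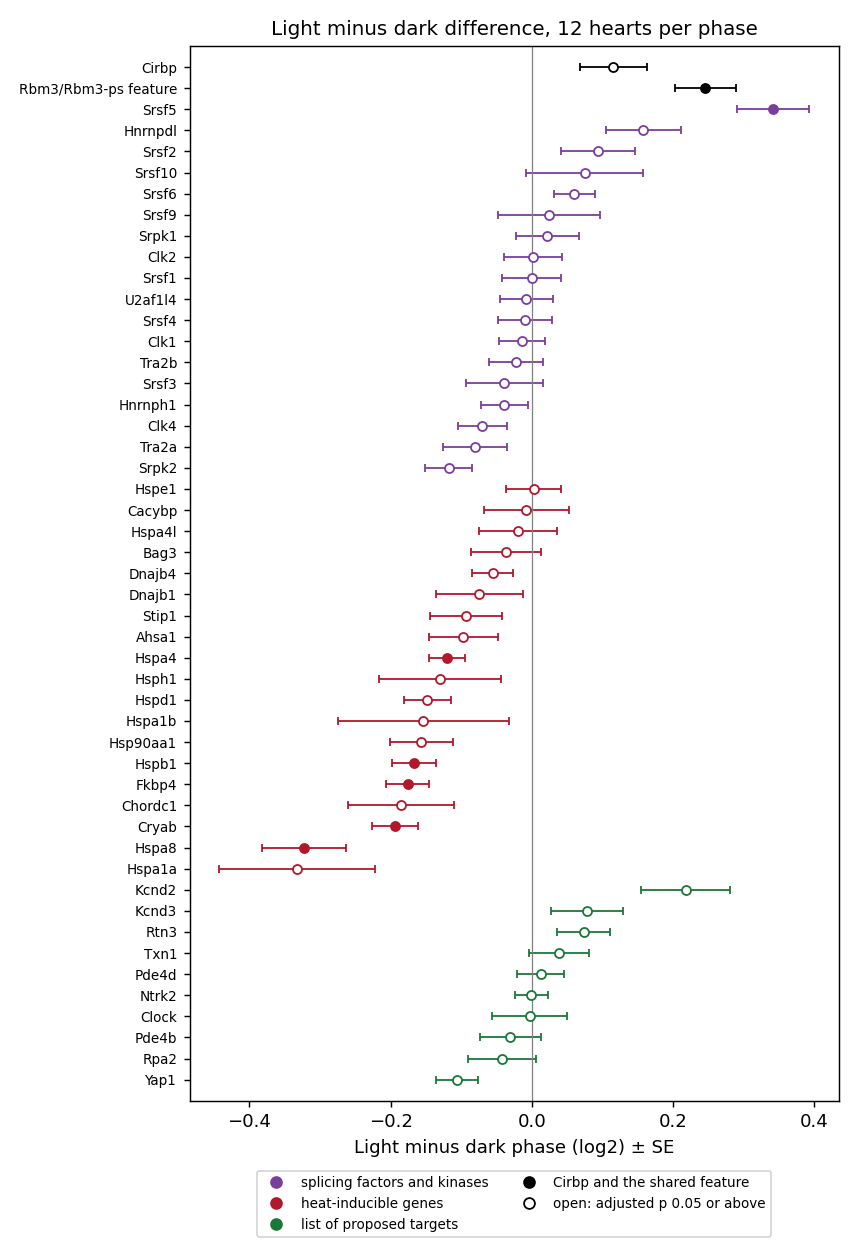
Light minus dark difference on the log2 scale ± SE (x axis) for Cirbp, the feature shared by Rbm3 and Rbm3-ps, splicing factors and kinases, heat-inducible genes and proposed targets (y axis), from 12 hearts per phase. Filled points passed over all genes (over all features for the shared feature): the shared feature at 0.25 and Srsf5 at 0.34 are higher in the light phase, and 5 genes listed as heat-inducible are lower there, with Hspa8 at -0.32.

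Among 12 genes upstream of CIRBP and RBM3 or coding for their protein partners, 0 passed the light-dark contrast. Hif1a, the hypoxia factor gene, was the 1 of them that passed the F test and the 24 h test, with a fitted peak at ZT1.28. Over all genes 1.48% passed the F test and 0.0631% the 24 h test. The light minus dark difference of Hif1a was 0.0046 ± 0.021 (SE). Sp1, whose protein binds GC boxes, was at -0.012 ± 0.039, and Tnpo1, which codes for an importin that carries CIRBP into the nucleus, at 0.070 ± 0.037. Of 4 genes for receptors proposed for secreted CIRBP or linked to it, 0 passed; Tlr4 was at 0.040 ± 0.053. Of 19 measured core clock genes, 1 was lower in the light phase, Nfil3, and 0 were higher, against 0.135% and 0.243% of all genes.

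Markers of other cell types were set beside these values. Of 8 genes listed as skeletal muscle markers, 0 passed the light-dark contrast over all genes, 1 (Ckm) passed the F test and 3 were lower in the light phase at an unadjusted p under 0.05. Whether heart muscle itself expresses these genes cannot be read from centred values. Their mean per heart ran between -0.18 and 0.070 in the light phase and between -0.091 and 0.14 in the dark phase. Over all genes 4.23% were lower at such a p and 1.48% passed the F test. Across the 24 hearts, which share their arrays, the r of this mean was -0.51 with Cirbp and -0.61 with the shared feature, and for the other marker lists r lay between -0.18 and 0.33. In the skeletal muscle list, light minus dark was lowest for Acta1, at -0.24 ± 0.13 (SE), and highest for Myh4, at 0.023 ± 0.025. The r of Acta1 on its own was -0.47 with Cirbp and -0.51 with the shared feature. Of 8 fibroblast markers, 3 were higher in the light phase at an unadjusted p under 0.05 and 0 passed, with a mean per heart of -0.12 to 0.19 in the light phase and -0.20 to 0.067 in the dark phase. Over all genes 6.3% were higher at such a p. Of the 8 cardiomyocyte, 8 endothelial and 6 brown fat markers, 0 had such a p in either direction, and of 6 smooth muscle and 8 immune markers 1 each was higher in the light phase. The erythroid list had 0 measured genes. The part of skeletal muscle or fibroblast RNA in the values of Cirbp and the shared feature was not tested.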

How the data were processed

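Transcripts of 24 hearts were measured on 1-colour Affymetrix arrays from biotin-labelled cRNA made from 500 ng of total RNA, per the labels' protocols. The authors deposited log values, read here as log2, that are centred per feature on the median of 24 arrays (largest absolute median 5e-07). Summarization, normalization and log base are not given in the sources used here; with natural logs, folds of 1.08 and 1.19 would be 1.12 and 1.28.

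Of 34351 features, 23521 had 1 symbol in the platform annotation, 1814 several and 9016 none. Features were averaged per gene, giving 22180 genes without a filter. The package limma 3.58.1 (R 4.3.3) gave the tests, adjusted by Benjamini-Hochberg at 0.05 over all genes, or over all features for the shared one. The design named Rbm3, which has no feature of its own; the shared feature took its place after the annotation was read. Permutation tests used scipy 1.17.1. Scripts were tested on simulated data. Promoters are from RefSeq.

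The members and gene lists were chosen with earlier results of these data known. Genes were named by rule: list members passing a test over all genes, up to 4 others per list with the smallest light-dark p, and the 6 genes of highest and of lowest r with Cirbp and with the shared feature, leaving out predicted genes and clone names; members of the target, partner and receptor lists could all be named. Rbmx, Ybx1, Hspa1b and the CDC-like kinase genes were named for their roles and Rbm3os for its position, after their values were seen. Ckm, Acta1 and Myh4 were named for their values. Biological replicates are labelled as such.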

Additional observations from a re-analysis of the deposited data

Results flagged for a closer look

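Within time points, 18 groups of 4 hearts were examined for a heart far from the other 3, and chance marks about 1 in 20 such groups. For Cirbp, ZT11 replicate 3 was at 0.12, while the other 3 ZT11 hearts lay between -0.0073 and 0.00031. Without that heart the light minus dark difference of Cirbp was 0.11 (adjusted p with limma 0.45), against 0.12 with it. For Rbm3os, ZT11 replicate 1 was at 0.16, while the other 3 ZT11 hearts lay between -0.045 and -0.012. The shared Rbm3/Rbm3-ps feature had no heart past this limit.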

How the results depend on the processing

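The light minus dark difference of Cirbp lay at 0.10 to 0.12 under 6 other settings: quantile normalization, centring of arrays, array weights, robust variance, the fit over features and the replicate block. In these and the 24 fits that left out a heart it stayed above 0 and did not pass, and the F test, the 24 h and 12 h terms and the pairs of time points also kept their side of the threshold for Cirbp. For the shared Rbm3/Rbm3-ps feature, the contrast kept its direction and passed in all 30 alternatives, which were applied to it after the data were seen. Its F test passed under 6 settings but with hearts left out gave adjusted p of 0.032 to 0.079. Its count of passing pairs of time points, 0 above, was 2 with quantile normalization, 2 with array weights, 1 as an added row in the fit over genes and 0 to 2 with hearts left out. Cirbp minus the shared feature was -0.156 to -0.098 with hearts left out. Their correlation was 0.39 with quantile normalization (permutation p = 0.057); the cause was not tested. Replicate numbers are shared between time points. After removal of time-point means, 8 of 60 pairs of equal number and 18 of 180 of unequal number correlated above 0.1 (medians -0.00075 and -0.00096). A pairing of hearts by number was thus not detected, but correlations over all genes can miss one that acts on few genes. With the replicate block the differences were 0.12 for Cirbp and 0.25 for the shared feature (adjusted p with limma 0.40 and 0.020), and no call changed.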
